A study of Homo sapiens with 30 samples.

Results

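The comparison described here asked how RSRP1-knockout A549 cells that carry the name part iR differed from RSRP1-knockout A549 cells without it when neither had been exposed to a magnetic field. A549 is an established cell line from a human lung adenocarcinoma. The 3 libraries named iR_KOA_NE were set against the 3 named KOA_NE, chosen by their column names, so that 6 of the 30 libraries of the series entered the comparison. Both groups carried the RSRP1 knockout and both were labelled as having had no magnetic exposure. The names differ by iR alone, whose meaning the labels do not give, and it is kept as a name. The part of RSRP1 that was removed, and whether the knockout line is 1 clone, are not given either. The iR cultures may have differed from the others in ways the labels do not record, and such differences cannot be told apart from iR. Nothing in the labels says that the 3 libraries of a group are separate cultures. The p-values therefore measure only the scatter of libraries within groups, which may be technical. That scatter was estimated from all 30 libraries of the series and not from the 6 compared alone.

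The series sequenced polyadenylated RNA from 10 groups of 3 libraries, and its title names a magnetic field, non-small cell lung cancer, RSRP1 and secretory signalling. Besides the 2 groups compared here it holds exposed knockout cells with and without iR (iR_KOA_EX and KOA_EX, labelled as a magnetic exposure of 2 H). It also holds exposed and unexposed iR knockout cells with a further name part, D3, whose meaning is not given, and exposed and unexposed iR wild-type cells with and without D3. There is no wild-type group without iR, so iR could be set against its absence in the knockout only.

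RSRP1 encodes an arginine- and serine-rich protein of the kind found among splicing regulators. A549 cells keep features of the airway epithelium: they can make gel-forming mucins, antiprotease and acute-phase proteins, which secretory and goblet cells of the airway release into mucus under transcription factors such as SPDEF. The other programmes described below are general to growing cells. Mitotic genes are switched on late in the cell cycle, the integrated stress response raises amino acid supply through the factor ATF4, and the sterol-sensing SREBP2 pathway sets the enzymes of cholesterol synthesis.

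The deposited values were FPKM, fragments per kilobase of transcript scaled to each library's total. Totals recovered from the steps between values were 35612274 to 36941909 reads in the 6 libraries, so depth was close to even. They are estimates, since each gene was given the smallest whole counts that match its values within the tolerance, and another rule gives other totals. Libraries of the same group correlated across genes at 0.996 to 0.998, and iR_KOA_NE libraries with KOA_NE libraries at 0.988 to 0.992. The leading principal component of the 6 libraries held 71.1% of the variance. The epithelial label was checked against 6 markers: KRT8 averaged 1217 FPKM in iR_KOA_NE and 1272 FPKM in KOA_NE, KRT18 853 and 904 FPKM, KRT7 403 and 360 FPKM and CDH1 26.2 and 22.0 FPKM, while EPCAM was near 1 FPKM and KRT19 reached at most 0.331 FPKM in all 6 libraries. The 6 markers together summed to 2447 to 2586 FPKM in iR_KOA_NE and 2540 to 2587 FPKM in KOA_NE. Markers of other cell types were low: 7 of 8 endothelial and 10 of 10 fibroblast markers stayed under 1 FPKM in all 6 libraries, and 7 of the 9 immune and blood markers in the table did so. The summed endothelial markers were 1.18 to 1.56 FPKM in iR_KOA_NE and 1.53 to 1.57 FPKM in KOA_NE, and the summed fibroblast markers 0.534 to 0.854 and 0.524 to 0.579 FPKM. CD14 and CD68 were the immune markers above that level, at 8.73 and 34.8 FPKM in iR_KOA_NE and 12.4 and 32.2 FPKM in KOA_NE, while PTPRC, the pan-leukocyte marker, was at or under 0.00838 FPKM and CD163 was listed at 0 throughout. In bulk RNA of this kind, fewer cells of a type and less RNA per cell cannot be told apart.

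RSRP1 itself (NCBI gene 57035, chr1:25242249-25338254) was higher in the iR knockout. It had 7.63, 7.95 and 7.45 FPKM in the iR_KOA_NE libraries, against 2.12, 2.70 and 2.46 FPKM in the KOA_NE libraries. Every iR_KOA_NE library stood above every KOA_NE library. The means were 7.68 ± 0.25 FPKM in iR_KOA_NE and 2.43 ± 0.29 FPKM in KOA_NE (SD, n = 3 each). On the log2(FPKM + 1) scale, used for every log2 value below and understating the change of low genes, the difference was 1.34 ± 0.059 (SE), with a Benjamini-Hochberg adjusted p of 6.1e-15 in limma's moderated test. Both groups were low beside the unexposed iR wild type, which averaged 49.0 ± 0.77 FPKM: the iR_KOA_NE mean was 15.7% of that level and the KOA_NE mean 4.96%. The 2 groups thus differed in remaining RSRP1 transcript as well as in the name part iR. Since the removed part of the gene is not known here, these whole-gene values do not measure intact RSRP1.

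Over the 12086 genes tested, 4656 (38.5%) passed the threshold of an adjusted p of 0.05, with 2259 (18.7%) higher and 2397 (19.8%) lower in iR_KOA_NE than in KOA_NE. Most of these differences were small: the median absolute log2 difference of the genes that passed was 0.251, and 40 genes (0.331%) passed with a log2 difference of at least 1 in size. Of those 40, 10 (0.0827%) were higher and 30 (0.248%) lower in iR_KOA_NE. The median log2 difference over all genes was -0.0011. The libraries of the 2 groups did not overlap for 6186 genes (51.2%). With so large a share of genes past the threshold, counts within the gene lists below are read against 18.7% higher and 19.8% lower.

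The 15 largest falls were in genes of mixed function, among them both main gel-forming mucins of the airway and several other secreted proteins. The largest falls and rises were taken only from genes whose iR_KOA_NE and KOA_NE libraries did not overlap. Their lack of overlap was thus set by the choice. MUC5AC, a gel-forming mucin of the airway surface (NCBI gene 4586, chr11:1157953-1201138), had 4.46, 4.26 and 4.58 FPKM in the iR_KOA_NE libraries, against 24.2, 23.2 and 21.8 FPKM in the KOA_NE libraries. All 3 iR_KOA_NE libraries were far below all 3 KOA_NE libraries. The group means were 4.43 ± 0.16 and 23.1 ± 1.2 FPKM (SD, n = 3 each), 5.21-fold lower in iR_KOA_NE, with a log2 difference of -2.15 ± 0.097 (SE, adjusted p = 7.41e-15). MUC5B, the other main airway gel-forming mucin, which lies close by (NCBI gene 727897, chr11:1223066-1262172), had 32.1, 31.3 and 35.5 FPKM in iR_KOA_NE, against 118, 115 and 112 FPKM in KOA_NE. Again the groups were well apart, with means of 33.0 ± 2.2 and 115 ± 2.9 FPKM and a log2 difference of -1.77 ± 0.10 (adjusted p = 1.12e-12). No source used here gives the strand setting of the counting, so that MUC5B reads cannot be told apart from those of its annotated antisense RNA.

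AQP3, a channel for water and glycerol (NCBI gene 360, chr9:33441160-33447593), had 7.89, 7.39 and 8.36 FPKM in iR_KOA_NE, against 37.3, 35.1 and 33.8 FPKM in KOA_NE. The lowest KOA_NE library was thus above 4 times the highest iR_KOA_NE library. Its log2 difference of -2.04 ± 0.075 (adjusted p = 1.86e-16) was followed by those of ADH1C, a class I alcohol dehydrogenase (-2.02), FCGBP, an IgG-binding protein of mucus (-2.00), CHGB, the secretory granule protein chromogranin B (-1.99), LGR6, a receptor for R-spondins (-1.72), and S100P, a calcium-binding protein (-1.71). NTS, the secreted peptide neurotensin (-1.68), HLA-DMB, which loads peptides on HLA class II (-1.63), CP, the copper carrier ceruloplasmin (-1.59), and SLPI, a secreted antiprotease (-1.40), came next. RARRES1, a retinoic acid responsive gene (-1.31), SPDEF, a transcription factor of goblet cells (-1.30), and RBP4, the retinol carrier of plasma (-1.28), completed the 15 largest falls. SPDEF had 0.713, 1.09 and 1.15 FPKM in iR_KOA_NE, against 3.63, 4.16 and 3.81 FPKM in KOA_NE. Its level was low in both groups, and the 2 sets of libraries did not overlap. The fall ranked next after RBP4 was that of the cadherin CDH17 (-1.25).

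Of the 26 lung secretory, alveolar and acute-phase genes tested, 20 were lower in iR_KOA_NE, 0 were higher and 6 did not pass, against 19.8% of all genes lower. The list's median log2 difference was -0.72. The fibrinogen chains, clotting proteins that epithelial cells make in the acute phase, all fell: FGB by 1.15, FGG by 1.00 and FGA by 0.66 on the log2 scale. Complement genes fell as well, with C3 at 38.4, 37.6 and 42.2 FPKM in iR_KOA_NE, against 74.8, 72.7 and 76.1 FPKM in KOA_NE, and log2 differences of -0.90 for C3 and -1.04 for CFB. AGR2, a disulfide isomerase needed for mucin assembly, had 70.4, 67.0 and 68.0 FPKM in iR_KOA_NE, against 129, 128 and 129 FPKM in KOA_NE. In both genes the libraries of each group lay close together and the groups were apart. LCN2, an iron-siderophore binding protein, fell by 1.13, the transmembrane mucins MUC13 and MUC1 by 0.73 and 0.52, and the hepatocyte nuclear factor HNF4A by 0.43 on the log2 scale. Among the genes that did not pass were the protease NAPSA and the lineage transcription factors SOX2, SOX9, FOXA1 and FOXA2, with log2 differences of -0.27 to 0.14. The list as a whole took 0.0740% of all FPKM in iR_KOA_NE and 0.156% in KOA_NE.

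**Figure D1:**
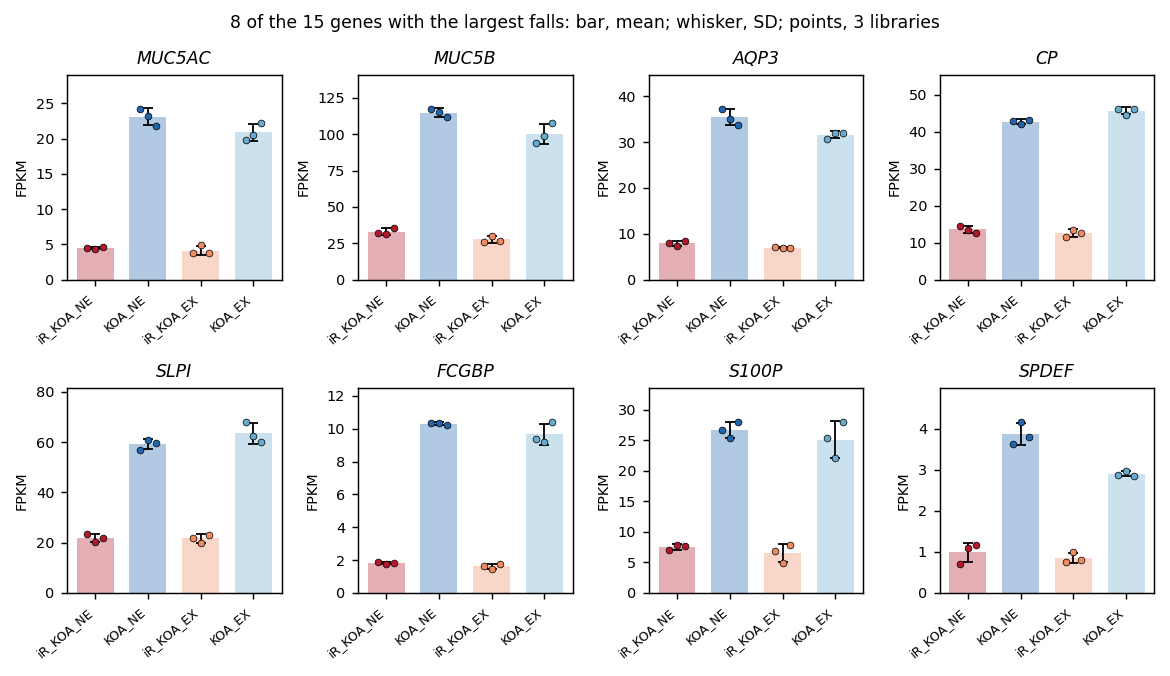
FPKM of 8 of the 15 genes with the largest falls (linear axis from 0) in iR_KOA_NE, KOA_NE, iR_KOA_EX and KOA_EX; bars show means, whiskers the SD and points the 3 libraries of each group. In each panel the iR_KOA_NE libraries lie below the KOA_NE libraries, as the rule that chose these genes required. The exposed iR_KOA_EX libraries, which that rule did not use, lie below the KOA_EX libraries in the same way (MUC5B 27.6 and 100 FPKM).

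The rises were smaller than the falls and were led by a stress-induced secreted protein. STC2, stanniocalcin-2, a secreted glycoprotein (NCBI gene 8614, chr5:173314723-173328414), had 15.2, 17.2 and 16.3 FPKM in iR_KOA_NE, against 5.35, 4.97 and 5.14 FPKM in KOA_NE. No KOA_NE library came near an iR_KOA_NE library, and the log2 difference was 1.49 ± 0.081 (adjusted p = 2.97e-13). Behind STC2 and RSRP1 stood IGFBP7, a secreted protein related to the insulin-like growth factor binding proteins (1.22), DCDC2, a microtubule-binding protein of cilia (1.19), NR4A1, an immediate early nuclear receptor (1.15), TRIB3, a pseudokinase induced by ATF4 (1.04), and GPNMB, a transmembrane glycoprotein of lysosomes and melanosomes (1.02). Next came PTTG1, the securin that inhibits separase (1.00), CCNB2, cyclin B2 (0.91), and CDKN3, a phosphatase of cyclin-dependent kinases (0.90). ARL6IP1, a membrane-shaping protein of the endoplasmic reticulum (0.89), LOC101927345 (0.89) and HMOX1, heme oxygenase 1 (0.87), followed. DLGAP5, a spindle protein (0.84), and ACKR3, an atypical receptor for the chemokine CXCL12 (0.84), completed the 15 largest rises. The rise ranked next was that of CCNB1 (0.83).

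Genes of mitosis were higher in iR_KOA_NE almost throughout the list. Of 37 G2/M and mitosis genes tested, 33 rose, 0 fell and 4 did not pass, against 18.7% of all genes higher, and the list's median log2 difference was 0.50. CCNB1, cyclin B1, which drives entry into mitosis with CDK1 (NCBI gene 891, chr5:69167150-69178245), had 108, 106 and 107 FPKM in iR_KOA_NE, against 61.2, 61.0 and 57.2 FPKM in KOA_NE. CCNB2 (NCBI gene 9133, chr15:59105146-59125045) had 69.8, 71.1 and 73.5 FPKM in iR_KOA_NE, against 37.1, 37.6 and 37.7 FPKM in KOA_NE. In both cyclins the spread within each group was far smaller than the gap, with log2 differences of 0.83 ± 0.037 for CCNB1 and 0.91 ± 0.041 for CCNB2 (adjusted p = 6.66e-15 and 7.41e-15). PLK1, the polo kinase of spindle assembly (chr16:23678889-23690367), had 77.6, 76.1 and 82.3 FPKM in iR_KOA_NE, against 47.9, 47.3 and 49.6 FPKM in KOA_NE (log2 difference 0.69 ± 0.051, adjusted p = 7.98e-11). PTTG1 had 50.1, 52.2 and 50.4 FPKM in iR_KOA_NE, against 24.8, 24.8 and 24.9 FPKM in KOA_NE. Kinetochore and spindle genes moved the same way, among them CENPF (0.69), CENPE (0.65), BUB1 (0.63), CDC20 (0.58), KIF20A (0.58) and AURKA (0.50). The 4 genes that did not pass included CDK1 itself, at 40.1 and 37.9 FPKM (log2 difference 0.07), with CDC25B (0.06), AURKB (0.10) and NDC80 (0.14). MKI67, the proliferation marker Ki-67, rose by 0.16 only.

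Genes of the step before, DNA replication, went the other way by smaller amounts. Of 42 S-phase genes, 24 fell, 1 rose and 17 did not pass, with a median log2 difference of -0.15. CCNE1, cyclin E1, which drives the start of replication, had 14.8, 15.1 and 15.6 FPKM in iR_KOA_NE, against 20.7, 23.8 and 22.7 FPKM in KOA_NE, with no overlap (log2 difference -0.53 ± 0.071, adjusted p = 2.09e-06). CCNE2 fell by 0.44, RRM2, a subunit of ribonucleotide reductase, by 0.33, CDC45, part of the replicative helicase, by 0.31 and E2F1 by 0.25 on the log2 scale. PCNA, the sliding clamp, did not pass, at 340 FPKM in iR_KOA_NE and 348 FPKM in KOA_NE, and SLBP, the histone mRNA binding protein, was the gene that rose (0.10). Among 34 p53 targets, 11 fell and 4 rose. The largest changes of that list were the rises of KITLG (0.74) and CCNG1 (0.58), followed by the fall of CDKN1A. CDKN1A, the p21 inhibitor of cyclin-dependent kinases, had 69.5, 70.3 and 71.5 FPKM in iR_KOA_NE, against 103, 108 and 103 FPKM in KOA_NE, all 3 iR_KOA_NE libraries being lower (log2 difference -0.56, adjusted p = 1.47e-09). MDM2, the feedback inhibitor of p53, was at 11.2 and 11.6 FPKM and did not pass.

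The promoters of 2 mitotic genes are shown because the opposite movement of the mitotic and replication lists is the clearest split within the cell cycle genes, and because late cell cycle promoters are known for a pair of short elements. The elements searched were the cell cycle homology region, CHR, read as TTTGAA or TTCAAA, and the CCAAT box, read as CCAAT or ATTGG, so that both strands were covered, and the 2 do not overlap. They were chosen after the values had been seen. The sequences are the 250 bases before the annotated start of the gene, on the plus strand of GRCh38.p14 from RefSeq, at chr15:59104896-59105145 for CCNB2 and chr16:23678639-23678888 for PLK1, with the letters of either element in capitals.
CCNB2: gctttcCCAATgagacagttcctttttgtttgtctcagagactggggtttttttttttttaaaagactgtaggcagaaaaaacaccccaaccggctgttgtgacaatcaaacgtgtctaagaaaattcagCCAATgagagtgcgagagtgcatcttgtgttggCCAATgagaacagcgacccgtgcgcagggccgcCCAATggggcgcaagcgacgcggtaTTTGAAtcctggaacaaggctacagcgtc
PLK1: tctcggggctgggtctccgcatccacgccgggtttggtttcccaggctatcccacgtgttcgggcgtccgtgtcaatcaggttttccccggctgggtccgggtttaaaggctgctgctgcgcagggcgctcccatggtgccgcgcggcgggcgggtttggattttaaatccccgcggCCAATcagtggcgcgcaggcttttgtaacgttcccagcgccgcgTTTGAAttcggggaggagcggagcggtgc

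In both promoters TTTGAA stood from 29 to 24 bases before the start. CCNB2 held CCAAT beginning 244, 120, 87 and 54 bases before the start, and PLK1 held it beginning 73 bases before the start. Of the 37 tested mitotic genes 31 had a promoter in the reference table, with 41 promoters between them. TTTGAA or its complement was found in 19 of these 41 (46.34%), in 2 of the 49 promoters of 36 S-phase genes (4.082%) and in 13.32% of all 35116 promoters of the table. CCAAT or its complement was found in 30 of 41 mitotic promoters (73.17%), 26 of 49 S-phase promoters (53.06%) and 32.01% of all promoters. It was also found in 73.08% of the promoters of the cholesterol list, so that share was not particular to mitotic genes. The secretory list had 47.37% and the integrated stress response list 44.9%. For TTTGAA or its complement the cholesterol, secretory and stress response shares were 7.692, 10.53 and 6.122%. A match describes these letters in this window and does not show a bound site.

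Replication-dependent histone genes, whose transcripts normally lack a poly(A) tail and are therefore captured only in small part by oligo(dT) selection, were mostly higher in iR_KOA_NE. Of 37 such genes 13 reached the level needed for testing, and of these 9 rose, 1 fell and 3 did not pass, with a median of 0.60. H2AC6 had 10.2, 12.0 and 10.3 FPKM in iR_KOA_NE, against 6.11, 6.42 and 5.79 FPKM in KOA_NE, and H2BC21 had 2.20, 2.78 and 2.58 FPKM, against 0.984, 1.13 and 1.07 FPKM. Both stood apart without overlap. The linker histone H1-2 fell by 0.36. With a filter at 5 FPKM the count of higher histone genes was 4, and near-identical histone copies may have exchanged reads.

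**Figure D2:**
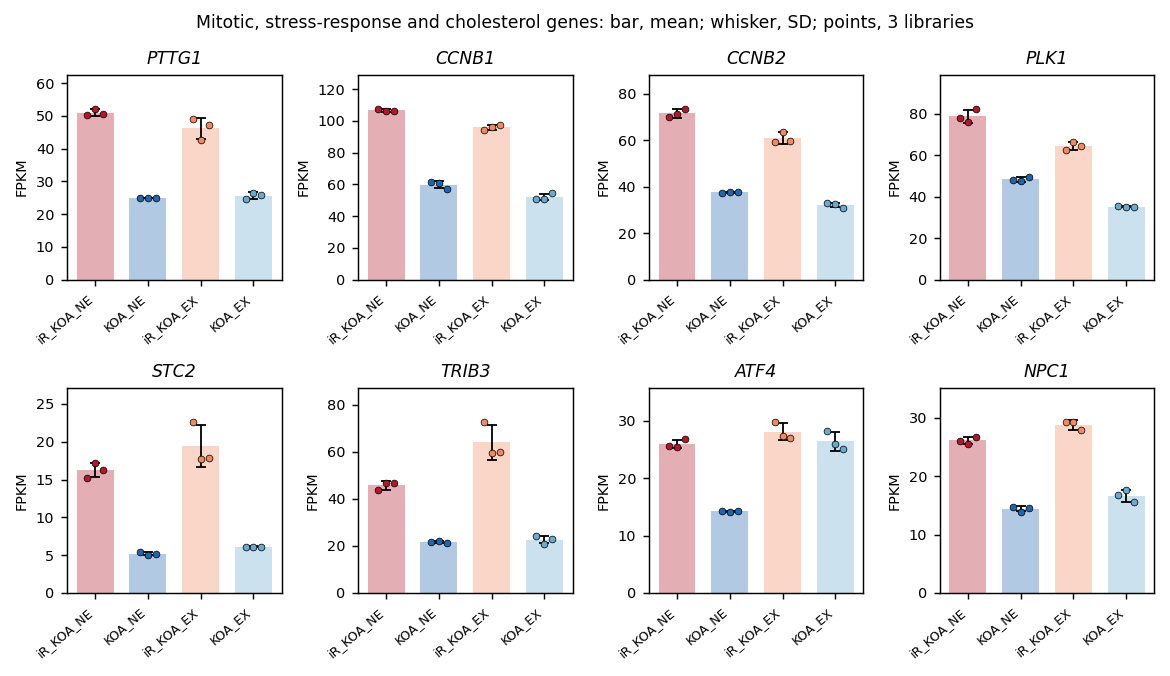
FPKM of 4 mitotic genes (upper row) and of STC2, TRIB3, ATF4 and NPC1 (lower row), on linear axes from 0, in iR_KOA_NE, KOA_NE, iR_KOA_EX and KOA_EX; bars show means, whiskers the SD and points the 3 libraries. All 8 genes are higher in iR_KOA_NE than in KOA_NE, and the same order holds between iR_KOA_EX and KOA_EX, where ATF4, at 28.1 and 26.4 FPKM, did not pass the threshold.

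Genes of the integrated stress response and amino acid supply formed another group that rose. Of 38 tested, 27 rose, 2 fell and 9 did not pass, with a median log2 difference of 0.38. ATF4, the transcription factor at the centre of this response (NCBI gene 468, chr22:39520559-39522686), had 25.6, 25.5 and 26.8 FPKM in iR_KOA_NE, against 14.3, 14.1 and 14.2 FPKM in KOA_NE. The groups were far apart, with a log2 difference of 0.82 ± 0.056 (adjusted p = 1.85e-11). TRIB3 had 43.7, 46.6 and 46.9 FPKM in iR_KOA_NE, against 21.5, 22.3 and 21.2 FPKM in KOA_NE. Amino acid transporters rose with them: SLC7A5, which imports large neutral amino acids, had 301, 308 and 326 FPKM in iR_KOA_NE, against 175, 177 and 175 FPKM in KOA_NE, and its heavy chain SLC3A2 rose by 0.64. PSAT1, an enzyme of serine synthesis, had 128, 139 and 122 FPKM in iR_KOA_NE, against 73.2, 74.7 and 77.5 FPKM in KOA_NE. Each of these 4 genes had its 3 iR_KOA_NE libraries above all KOA_NE libraries. MTHFD2 of mitochondrial one-carbon metabolism rose by 0.61, and the tRNA synthetases GARS1, AARS1, EPRS1, CARS1 and NARS1 by 0.60, 0.49, 0.41, 0.41 and 0.40. The stress genes CHAC1 and NUPR1 rose at very low levels, with means of 0.534 and 0.673 FPKM in iR_KOA_NE, against 0.108 and 0.123 FPKM in KOA_NE. ATF3, SESN2 and PPP1R15A, which are also induced by this response, did not pass, with log2 differences of -0.13, -0.13 and -0.05, and ATF5 fell by 0.28.

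The unfolded protein response of the endoplasmic reticulum, a neighbouring stress pathway, did not follow. Of its 26 genes tested 3 rose, 9 fell and 14 did not pass, with a median of -0.14. XBP1, a transcription factor that expands secretory capacity, had 29.5, 29.8 and 27.4 FPKM in iR_KOA_NE, against 47.8, 51.5 and 48.7 FPKM in KOA_NE, every iR_KOA_NE library being lower (log2 difference -0.75 ± 0.086, adjusted p = 2.28e-07). CRELD2 fell by 0.42, HYOU1 by 0.35 and CALR, calreticulin, by 0.30, while the main chaperone HSPA5 did not pass, at 155 FPKM in iR_KOA_NE and 182 FPKM in KOA_NE.

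Cholesterol genes rose as a group as well. Of 29 tested, 22 rose, 1 fell and 6 did not pass, with a median log2 difference of 0.32. NPC1, which exports cholesterol from lysosomes (NCBI gene 4864), had 26.1, 25.6 and 26.8 FPKM in iR_KOA_NE, against 14.7, 13.9 and 14.6 FPKM in KOA_NE. The libraries of the 2 groups were well apart, with a log2 difference of 0.82 ± 0.037 (adjusted p = 7.41e-15). INSIG1, a sterol-regulated anchor of the SREBP pathway, rose by 0.71, FDPS by 0.67, ACAT2 by 0.63 and HMGCS1 by 0.59. SREBF2, which encodes SREBP2, did not pass, at 21.6 FPKM in iR_KOA_NE and 20.3 FPKM in KOA_NE. ABCG1, a cholesterol exporter, was the gene that fell (-0.18). Among 28 genes of fatty acid synthesis and lipid handling 14 rose and 6 fell: SCD, which makes monounsaturated fatty acids, had 780, 795 and 799 FPKM in iR_KOA_NE, against 528, 536 and 519 FPKM in KOA_NE, whereas ACSL5 fell by 0.76. With a filter at 5 FPKM the count of lower genes in that list was 3.

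**Figure D3:**
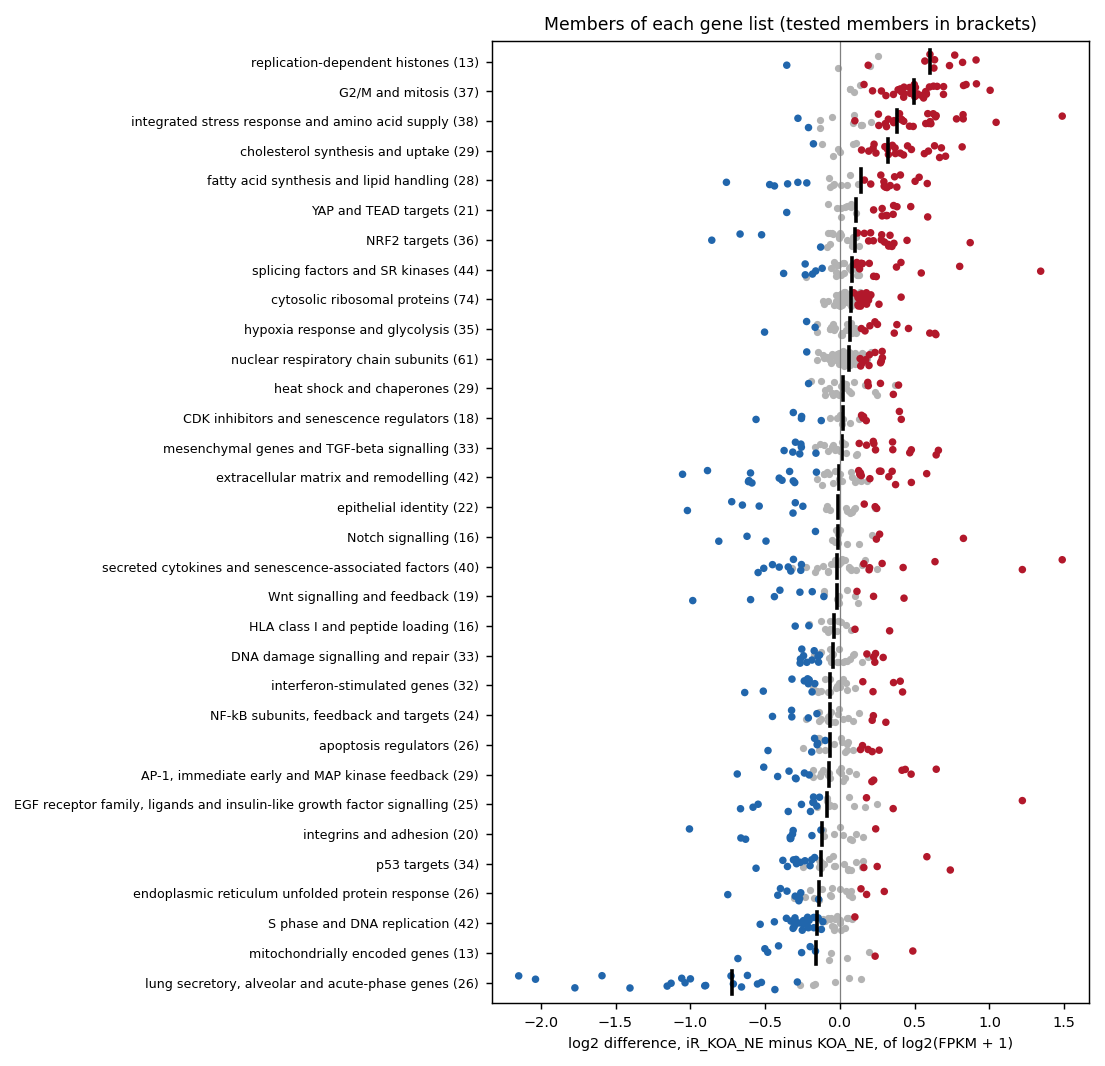
Log2 difference (iR_KOA_NE minus KOA_NE, on the log2(FPKM + 1) scale) of each tested member of 32 gene lists, sorted by their median (black bar); red points passed and were higher, blue points passed and were lower, grey points did not pass. Histone, mitotic, integrated stress response and cholesterol genes lie mostly to the right of 0 (medians 0.60, 0.50, 0.38 and 0.32), and the secretory genes lie farthest to the left (median -0.72).

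Smaller or mixed differences were seen in genes of cell contact and signalling. Of 22 epithelial identity genes 3 rose and 7 fell. CLDN2, a pore-forming tight junction protein, had 47.7, 47.1 and 50.6 FPKM in iR_KOA_NE, against 99.0, 100.2 and 98.4 FPKM in KOA_NE, with the libraries of each group close together (log2 difference -1.02 ± 0.037, adjusted p = 1.53e-16). EHF, an epithelial transcription factor, fell by 0.72 and JUP, plakoglobin, by 0.54, while CDH1, E-cadherin, rose by 0.25. Of 20 integrin and adhesion genes 1 rose and 10 fell, led by the carcinoembryonic antigen family members CEACAM6 (-1.01) and CEACAM1 (-0.66) and by the integrin ITGB4 (-0.63). Matrix genes were divided, 12 up and 12 down of 42, with VCAN, versican, at 0.932 FPKM in iR_KOA_NE and 3.01 FPKM in KOA_NE (-1.05) and COL7A1 at 11.1 and 21.4 FPKM (-0.89). Of 33 mesenchymal and TGF-beta signalling genes 11 rose and 7 fell, with a median log2 difference of 0.013. Among them CDH2, N-cadherin, rose by 0.64. The Wnt list had 3 higher and 7 lower genes of 19, among them the feedback inhibitors NKD1 (-0.98), RNF43 (-0.60) and AXIN2 (-0.44), and WNT7B rose by 0.43. In the Notch list the ligand JAG1 had 9.50, 9.84 and 10.5 FPKM in iR_KOA_NE, against 5.03, 5.47 and 5.03 FPKM in KOA_NE, without overlap, while LFNG, which modifies the receptors, fell by 0.81, NOTCH3 by 0.62 and NOTCH1 by 0.49. Of 16 Notch genes 3 rose and 4 fell, so that 43.75% passed, near the 38.5% of all genes.

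Among 36 NRF2 targets, which respond to oxidants (A549 carries a mutated KEAP1, the repressor of NRF2), 15 rose and 4 fell. With quantile normalization the counts were 11 and 8. HMOX1 had 386, 385 and 397 FPKM in iR_KOA_NE, against 214, 210 and 213 FPKM in KOA_NE. The transporter ABCC3 fell by 0.86, the peroxidase GPX2 by 0.67 and the aldehyde dehydrogenase ALDH3A1 by 0.52, so members of the list moved in both directions. With HMOX1, which rose by 0.87, these were the 4 largest changes of the list. Its median log2 difference was 0.098. Hypoxia and glycolysis genes gave 11 higher and 3 lower of 35, with ALDOC (0.64), VEGFA (0.64) and NDRG1 (0.60) higher and CA9 lower (-0.50). Of 21 targets of the coactivator YAP 10 rose and 1 fell, AMOTL2 by 0.59 and ANKRD1 by 0.47. In the interferon list 5 of 32 genes rose and 9 fell, and without iR_KOA_NE replicate 1 the count of lower genes was 5. With a filter at 5 FPKM the count of higher interferon genes was 2.

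Composition differed between the groups. Mitochondrially encoded genes took 24.9, 24.6 and 24.3% of FPKM in the iR_KOA_NE libraries, against 29.7, 28.4 and 27.2% in the KOA_NE libraries. The groups did not overlap, and the difference of means was -3.82 percentage points, with p = 0.1 in the exact two-sided permutation test, the smallest value that 3 libraries against 3 allow. Of the 13 mitochondrial genes 7 were lower and 2 higher in iR_KOA_NE, from ND5 (-0.68) and COX1 (-0.50) to ND6 (0.49), and the count of lower genes was 3 with quantile normalization and 4 without a filter on low values. ND6 did not pass without KOA_NE replicate 3 (0.41, adjusted p = 0.0549). COX1 and ND1 were among the calls lost with quantile normalization, at -0.06 and -0.15. Between the exposed groups the list leaned the other way: 6 of 13 were higher and 2 lower in iR_KOA_EX. The median log2 difference there was 0.14, against -0.16 without exposure. The difference between exposed and unexposed cells passed for 7 of the 13, all higher with exposure, against 1.66% of all genes. With quantile normalization ND1 and COX1 did not pass that test. Cytosolic ribosomal protein genes took 8.94 ± 0.15% of FPKM in iR_KOA_NE and 8.38 ± 0.26% in KOA_NE, and 22 of 74 rose and 0 fell, with a median of 0.08. The count of higher genes was 13 without KOA_NE replicate 1, 14 without KOA_NE replicate 2 or iR_KOA_NE replicate 3, and 12 with quantile normalization. With quantile normalization 4 of these genes fell. The rise was not seen between the exposed groups, where 3 of the 74 were higher and 10 lower in iR_KOA_EX, with a median of -0.06. Over all genes 16.3% were higher and 23.4% lower there. The difference between exposed and unexposed cells passed for 0 of the 74. Since FPKM are shares of a library, a loss of 1 class raises the values of all others, and its part in the small rises was not tested. With median-of-ratios scaling the median log2 difference over all genes was 0.012, and the counts were 2523 higher and 2183 lower.

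The same difference in name could be measured in libraries that the comparison above did not use, the exposed iR_KOA_EX and KOA_EX. There 4808 genes (39.8%) passed, 1976 (16.3%) higher and 2832 (23.4%) lower in iR_KOA_EX. With a log2 difference of at least 1 in size 58 genes (0.48%) passed, 6 (0.0496%) higher and 52 (0.43%) lower. The split of all calls depended on scaling: it was 2494 higher and 2383 lower with median-of-ratios scaling and 2564 and 2294 with quantile normalization. Without and with exposure, 3041 genes (25.2%) passed in both comparisons, 2932 (24.3%) in the same direction and 109 (0.902%) in opposite directions. Those 3041 are 65.3% of the genes that passed without exposure and 63.2% of those that passed with it. The 15 largest rises and 15 largest falls all passed with the same direction in the exposed libraries, as did all 40 genes with a log2 difference of at least 1 in size. LOC101927345 was an exception when iR_KOA_EX replicate 2 or KOA_EX replicate 1 was left out, at 0.47 and 0.52 (adjusted p = 0.0697 and 0.0528). Over 12086 genes the 2 log2 differences had a Pearson correlation of 0.70, given as a description, since genes are not independent.

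Of the lists with the largest medians without exposure, 4 had counts with the same lean in the exposed cells and the histones differed in part. Of the secretory genes 23 of 26 were lower in iR_KOA_EX and 0 higher, of the mitotic genes 34 of 37 higher and 0 lower, of the integrated stress response genes 25 of 38 higher and 2 lower, and of the cholesterol genes 19 of 29 higher and 2 lower. Of the 13 histone genes 6 were higher, 2 lower and 5 not past in iR_KOA_EX, with a median of 0.24, and 3 had a difference between exposed and unexposed cells that passed and was lower. Among them H2BC21 had -0.09 and H2AC6 0.0039 with exposure. MUC5AC averaged 4.10 ± 0.65 FPKM in iR_KOA_EX and 20.9 ± 1.3 FPKM in KOA_EX, and AQP3 6.96 ± 0.13 and 31.6 ± 0.78 FPKM (SD, n = 3 each). CCNB2 averaged 60.8 ± 2.5 FPKM in iR_KOA_EX and 32.1 ± 1.1 FPKM in KOA_EX, and NPC1 28.8 ± 0.81 and 16.6 ± 1.0 FPKM. For MUC5AC, AQP3, CCNB2 and NPC1 these differences were close in size to those without exposure.

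**Figure D4:**
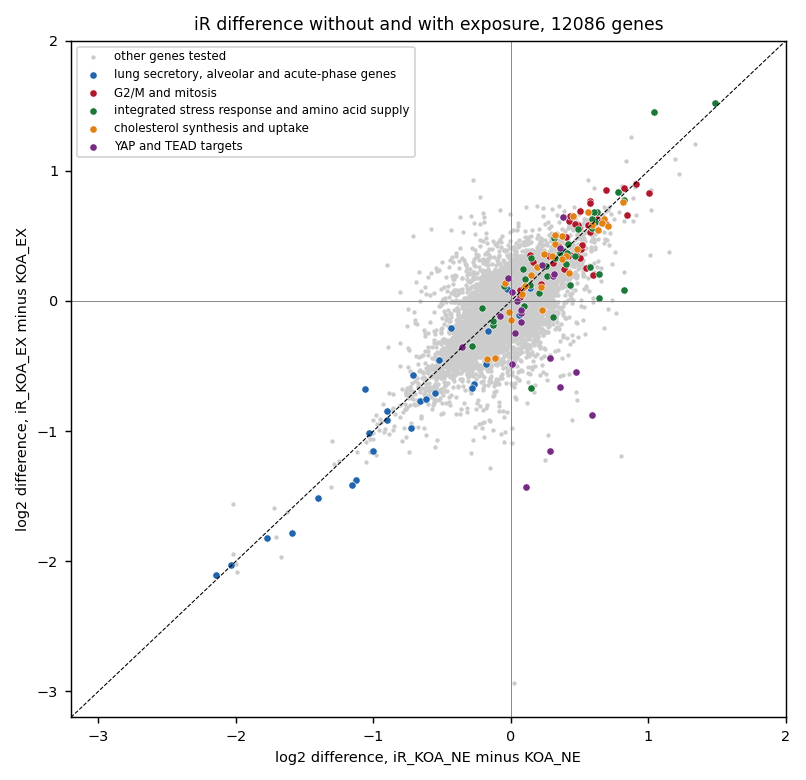
Log2 differences of the 12086 tested genes without exposure (iR_KOA_NE minus KOA_NE, horizontal axis) and with exposure (iR_KOA_EX minus KOA_EX, vertical axis), both on the log2(FPKM + 1) scale, with the dashed line marking equal values and 5 gene lists in colour. Secretory genes lie at the lower left and mitotic, integrated stress response and cholesterol genes at the upper right, while several YAP targets lie to the right of 0 and below it; the lone point at the bottom is HSPA6.

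The difference between the exposed and unexposed values was itself tested, and passed for 614 genes (5.08%), 201 (1.66%) with a higher and 413 (3.42%) with a lower value in the exposed cells. With quantile normalization these counts were 292 and 363. A difference of at least 1 in size passed for 15 genes (0.124%), 1 (0.00827%) higher and 14 (0.116%) lower. Of the 40 genes with large unexposed differences, 3 had a difference that passed. CLK1, a kinase of SR splicing proteins, had 20.3, 20.5 and 19.4 FPKM in iR_KOA_NE, against 11.8, 11.0 and 10.5 FPKM in KOA_NE. With exposure it averaged 18.5 ± 0.52 FPKM in iR_KOA_EX and 43.8 ± 4.5 FPKM in KOA_EX, so that its iR difference was 0.80 without and -1.19 with exposure (difference -1.99, adjusted p = 4.23e-12). The heat shock gene HSPA6 was under 0.07 FPKM in all 6 unexposed libraries, and averaged 10.3 ± 2.2 FPKM in iR_KOA_EX and 85.5 ± 15 FPKM in KOA_EX (difference -2.96). Of 29 heat shock and chaperone genes tested, 5 were higher and 1 lower without exposure, and 2 higher and 20 lower with it. Over the alternatives the unexposed counts were 3 to 8 higher and 0 to 5 lower. The difference itself passed for 12 of the 29, all lower with exposure, against 3.42% of all genes. Some YAP targets turned as CLK1 did: of 21, 5 passed in opposite directions without and with exposure, and 5 were higher in both. AMOTL2 was 0.59 without and -0.88 with exposure, ANKRD1 0.47 and -0.54, LATS2 0.36 and -0.66, whereas FJX1 was 0.38 and 0.65. The difference itself passed for 8 of the 21, all lower with exposure. ATF4 had an iR difference of 0.82 without and 0.09 with exposure (difference -0.74, adjusted p = 7e-07), while TRIB3 differed by 1.04 without and 1.45 with exposure. The values that turned upward were led by ARRDC3, an arrestin-domain protein, at -0.27 without and 0.93 with exposure, KLF10, a factor induced by TGF-beta (-0.29 and 0.65), and ID1, an inhibitor of basic helix-loop-helix factors (-0.27 and 0.60). Without iR_KOA_NE replicate 2 the unexposed fall of ID1 did not pass (-0.22, adjusted p = 0.0673).

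The levels of 6 of these genes in all 10 groups are given as a description. Among the unexposed groups MUC5B was lowest in the iR wild type, at 2.78 ± 0.18 FPKM in iR_WTA_NE, with 3.63 ± 0.50 FPKM in iR_WTA_D3_NE, 33.0 FPKM in iR_KOA_NE, 52.1 ± 2.8 FPKM in iR_KOA_D3_NE and 115 FPKM in KOA_NE. AQP3 had a different order, with 7.88 FPKM in iR_KOA_NE, 10.1 ± 1.0 FPKM in iR_WTA_NE, 18.8 ± 2.5 FPKM in iR_WTA_D3_NE, 22.6 ± 1.8 FPKM in iR_KOA_D3_NE and 35.4 FPKM in KOA_NE, where the mean ± SD of the neighbouring D3 groups overlapped. CCNB2 was high in both groups without D3 that carry iR, at 71.5 FPKM in iR_KOA_NE and 84.0 ± 2.7 FPKM in iR_WTA_NE, and was 29.4 ± 2.0 FPKM in iR_KOA_D3_NE, 38.4 ± 1.2 FPKM in iR_WTA_D3_NE and 37.5 FPKM in KOA_NE. KOA_NE thus lay nearer to the D3 groups than to the other iR groups for CCNB2. TRIB3 averaged 45.7 FPKM in iR_KOA_NE, 26.7 ± 1.7 FPKM in iR_KOA_D3_NE, 57.7 ± 3.2 FPKM in iR_WTA_NE, 88.2 ± 0.69 FPKM in iR_WTA_D3_NE and 21.6 FPKM in KOA_NE. NPC1 averaged 26.2 ± 0.61 FPKM in iR_KOA_NE, 19.7 ± 0.54 FPKM in iR_KOA_D3_NE, 34.3 ± 0.78 FPKM in iR_WTA_NE, 44.2 ± 0.71 FPKM in iR_WTA_D3_NE and 14.4 ± 0.41 FPKM in KOA_NE. For both genes the D3 group was thus below its counterpart without D3 in the knockout and above it in the wild type.

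**Figure D5:**
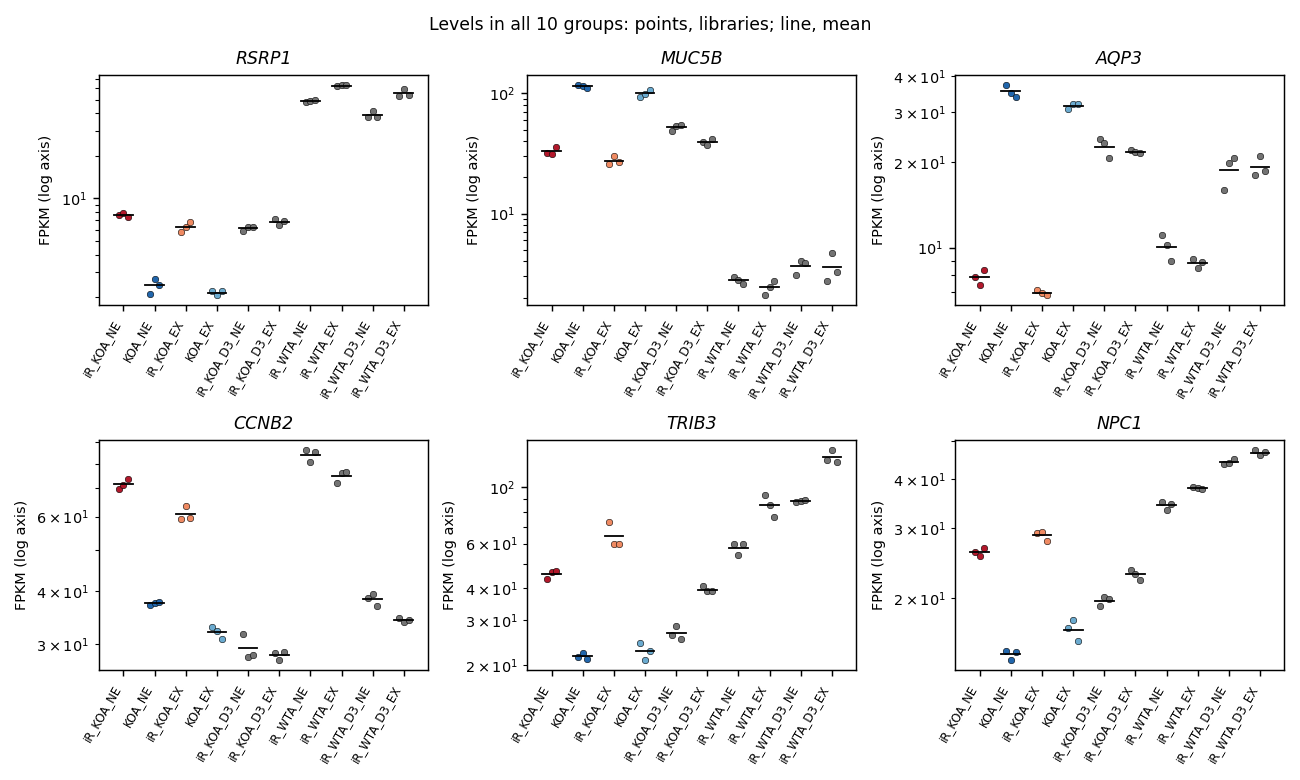
FPKM of RSRP1, MUC5B, AQP3, CCNB2, TRIB3 and NPC1 in all 10 groups, on log axes; points are libraries and lines are group means, with the 4 knockout groups of the comparisons in colour. RSRP1 is lowest in KOA_NE and KOA_EX (2.43 and 2.16 FPKM), MUC5B is lowest in the wild-type groups, and CCNB2 is high in iR_KOA_NE, iR_KOA_EX, iR_WTA_NE and iR_WTA_EX.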

How the data were processed

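Libraries were made from TRIzol-extracted RNA after DNase digestion, with oligo(dT) beads to select mRNA and random priming of cDNA, per the labels' protocols. The authors' deposited table holds 1 FPKM value per gene and library for 26801 genes, and fastp, HISAT2, HTSeq and GRCh38 are named, without versions, per the submitters' processing notes. The annotation, gene lengths, filters and strand setting were not stated. A further 6 columns of values match no sample and were not used. Each gene's values were whole multiples (within 0.01 of a read) of the value of 1 read, and the smallest whole counts that match gave estimated totals of 34620432 to 38939336 reads over the 30 libraries. Replicates of the 2 groups differed by 2.49 to 7.54 times counting error, so none was a repeat deposit.

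FPKM were taken to log2(FPKM + 1), and 12086 genes with at least 1 FPKM in 3 libraries were fitted with limma 3.58.1 in R 4.3.3 over all 10 groups (20 residual degrees of freedom), with Benjamini-Hochberg adjustment over all genes tested at a threshold of 0.05. The exposed comparison and the difference between both came from the same fit. Tables were handled in Python 3.11.15. The fit was tested on simulated data for the unexposed comparison. It recovered 40% of genes changed 1.25-fold, 98% at 1.5-fold, and 100% at 2-fold and at 4-fold (50 genes each), with 6 false calls among 11886 unchanged genes. The simulated reads had a common dispersion of 0.005 for all genes and libraries. Real replicates scattered unevenly, so these rates describe the simulated data and need not hold for the real libraries.

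The named genes were RSRP1, the 15 largest rises and the 15 largest falls among protein-coding genes that passed, averaged at least 2 FPKM in 1 group and did not overlap between groups, up to 4 of the largest changes of each list with at least 3 genes past, and the 5 largest differences each way between exposed and unexposed cells, with other list members named to describe a list. The comparison, the gene lists and their members were chosen with earlier results of these data known. Of 1138 names in 35 lists 10 were not matched, and 25764 of the gene IDs were found in the RefSeq table, which also gave the promoters. Alternatives were a pseudocount of 0.1, no filter or a filter at 5 FPKM, median-of-ratios scaling and quantile normalization. Further ones were a replicate block, a fit of the compared groups only, and leaving out each library of the compared groups in turn. Some members of the lists are counted but not reported by name here.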

Additional observations from a re-analysis of the deposited data

Results flagged for a closer look

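For 33 genes described here, the log2 difference between iR and non-iR knockout cells was not the same with and without magnetic exposure. The test was limma's test of that difference (exposed minus unexposed, Benjamini-Hochberg adjusted over all genes tested). Over all 12086 genes tested, 614 (5.08%) passed it. The 33 include the 5 largest differences each way, which were chosen by this same test, so their number is not to be read against that share. All values below are this difference of differences on the log2(FPKM + 1) scale.

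The value was lower with exposure for HSPA6 (-2.96), CLK1 (-1.99), CEBPD (-1.47), PHLDA1 (-1.17), HSPB8 (-0.93), NR4A1 (-0.77), ATF4 (-0.74), DNAJB1 (-0.73) and DUSP5 (-0.63). Among YAP targets it was lower for CCN1 (-1.54), AMOTL2 (-1.46), ANKRD1 (-1.02) and LATS2 (-1.02). It was also lower for the histones H2BC21 (-0.86) and H2AC6 (-0.73), for JAG1 (-0.60), for KITLG (-0.46) and for ID3 (-0.40). HSPA6 averaged 10.3 FPKM in iR_KOA_EX and 85.5 FPKM in KOA_EX, and CEBPD 24.6 and 58.6 FPKM.

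The value was higher with exposure for ARRDC3 (1.21), KLF10 (0.94), ID1 (0.87), NRIP1 (0.84), SOCS3 (0.82), LFNG (0.49), BCL3 (0.45), TRIB3 (0.41), HMOX1 (0.39), CHAF1A (0.35), XPC (0.31) and CDKN1A (0.23). The same held for the mitochondrial genes ND1 (0.59), ND5 (0.50) and COX1 (0.29). TRIB3 did not pass without KOA_EX replicate 2 (0.36, adjusted p = 0.0505) or with only the compared groups in the fit (0.41, adjusted p = 0.0505), and HMOX1 did not pass without iR_KOA_EX replicate 1 or KOA_EX replicate 2 (adjusted p = 0.0564 and 0.0545). CDKN1A, at 0.16 to 0.25, and COX1, at 0.20 to 0.30, each missed the threshold in several of the fits without 1 library, without a filter on low values and with only the compared groups in the fit. KITLG, at -0.47 to -0.40, missed it in most fits without 1 library (adjusted p of 0.0691 to 0.126), without a filter (0.0902), with only the compared groups (0.0502) and with median-of-ratios scaling (-0.44, adjusted p = 0.0566). With quantile normalization ND1 was 0.09 and COX1 -0.12, neither past the threshold.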

How the results depend on the processing

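Each library of the groups compared was left out in turn, and the D3 and wild-type libraries were kept. Without exposure 3595 to 4913 genes passed the threshold, 1690 to 2468 higher and 1895 to 2445 lower in iR_KOA_NE. With exposure 4029 to 4673 genes passed, 1634 to 1948 higher and 2360 to 2794 lower. The difference between exposed and unexposed cells passed for 417 to 695 genes, 132 to 230 with a higher and 284 to 465 with a lower value; the lowest higher counts were 132 without KOA_NE replicate 3 and 133 without KOA_EX replicate 1, against 201 with all libraries. The difference in mitochondrial share was -4.44 to -3.19 percentage points. With a filter at 5 FPKM fewer genes were tested, and 1874 were lower in iR_KOA_EX, against 2832. The COX1 difference between exposed and unexposed cells turned to -0.12 with quantile normalization, and the cause was not tested. Of the 149 genes named by the rule 146 passed without exposure, 17 of these lost their call in at least 1 of 14 alternatives and 0 turned sign.

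Same-numbered libraries of the 2 groups had correlations of deviations of 0.07, 0.016 and 0.20, so the numbers were not taken to pair them. A fit with the replicate block gave 2267 higher and 2400 lower genes without exposure. With the block and only the unexposed groups, an alternative chosen after seeing the data, the counts were 2299 and 2444, with 34 higher ribosomal protein genes against 22. Depth was close to even, and genes without 1 FPKM in at least 3 of the 30 libraries were not tested. Genes near 0 in the compared libraries rest on few reads.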
